A study of Mus musculus with 9 samples.

Results

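The neuronal nicotinic acetylcholine receptor subunits Chrna3, Chrna4, Chrna5, Chrna6, Chrna7, Chrnb2, Chrnb3 and Chrnb4 were followed across 9 RNA-seq libraries of whole mouse retina. They were taken by gene symbol, and all 8 were found among the 21769 genes counted. The libraries came from 3 groups with 3 biological replicates each, and every library pooled 2 retinae. The wild type retinae were from day 48 after birth and are labelled normal. Those of rd10 mice were from day 61 and are labelled degenerated; this strain carries a mutation of Pde6b, the rod phosphodiesterase subunit gene, and its rods die after birth. The third group is labelled as expressing green fluorescent protein (GFP), with normal retinae; an age of 42 days is given for a line written as Gg13, read here as this group. The labels do not say which promoter or cells drive GFP, and they give no sex and no further strain. Age differed between all groups, so age and genotype cannot be told apart.

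Nicotinic receptors are channels of 5 subunits that open when acetylcholine binds. Alpha subunits carry the main part of the binding site, Chrna5 and Chrnb3 act as accessory subunits, and Chrna7 can form channels on its own. In the retina acetylcholine is released by starburst amacrine cells. Ganglion cells and some amacrine and bipolar cells carry the receptors. Chrna6 and Chrnb3 are enriched in ganglion cells, and Chrna3 with Chrnb4 is the classical pair of autonomic ganglia.

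In rd10 retina the subunits did not all move one way. Chrnb4 rose 2.98-fold against wild type and Chrna3 1.93-fold, Chrna6 and Chrnb3, the most abundant pair, rose less, and Chrna5, which lies in the same gene cluster as Chrna3 and Chrnb4, fell against wild type. The calls of Chrna5, Chrna6 and Chrnb3 against wild type each depended on single libraries, while those of Chrnb4 and Chrna3 did not. Against GFP the calls of Chrna3 and Chrna6 depended on single libraries, while those of Chrnb4 and Chrnb3 did not. When libraries were scaled on marker genes of ganglion, starburst and other amacrine cells, Chrnb4 stayed higher, with 1.37% of all genes, and Chrna5 lower, with 52.8%, against wild type; the others lost their calls, and Chrna6 and, against wild type, Chrnb3 turned to lower values that did not pass. Between wild type and GFP retina no member passed (0), as no gene did (0%). All values are shares of the counts of a library, so fewer cells of a type and less RNA per cell cannot be told apart.

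The 8 genes lie at 5 places of the mm9 genome, as positioned in the deposited files. Chrna5 (chromosome 9, 54828687 to 54855586, plus strand), Chrna3 (54859150 to 54874366, minus strand) and Chrnb4 (54875963 to 54896351, minus strand) are neighbours. Gaps of 3563 and 1596 bases separate them. Chrnb3 (chromosome 8, 28479183 to 28510202, plus strand) and Chrna6 (28513684 to 28524416, minus strand) are also neighbours, 3481 bases apart. Chrna4 lies on chromosome 2 (180757016 to 180773882), Chrna7 on chromosome 7 (70243578 to 70357412) and Chrnb2 on chromosome 3 (89557370 to 89568554), all on the minus strand. Chrnb2 is the only member whose span overlaps another gene in the files, the end of Adar on the other strand. The strand setting of the counting is not given in the sources used here.

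The start regions of the chromosome 9 cluster are shown because its 3 genes did not all change in the same direction. RefSeq's promoter table (GRCm38.p6) matched 6 of the 8 members; Chrna6 and Chrnb3 had no entry. Each line is the 250 bases before an annotated start, on the gene's strand, with positions on that build and not on mm9. Capitals mark matches to CANNTG, the E-box read by basic helix-loop-helix factors, and to GGGCGG, the GC box read by Sp1-type factors. Both strands were searched, and capitals that run together are overlapping matches.
Chrnb4, chr9:55048545-55048794, minus strand: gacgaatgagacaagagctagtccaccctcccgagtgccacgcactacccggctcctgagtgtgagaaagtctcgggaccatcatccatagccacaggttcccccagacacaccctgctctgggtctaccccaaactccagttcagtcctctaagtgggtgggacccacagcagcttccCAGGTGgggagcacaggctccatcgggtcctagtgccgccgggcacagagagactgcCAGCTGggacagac
Chrna3, chr9:55026563-55026812, minus strand: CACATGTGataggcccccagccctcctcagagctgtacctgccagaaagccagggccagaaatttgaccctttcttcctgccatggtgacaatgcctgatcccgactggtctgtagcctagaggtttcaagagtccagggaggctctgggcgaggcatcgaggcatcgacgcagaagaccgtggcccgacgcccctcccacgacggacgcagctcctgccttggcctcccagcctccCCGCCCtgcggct
Chrna5, first start, chr9:54980630-54980879, plus strand: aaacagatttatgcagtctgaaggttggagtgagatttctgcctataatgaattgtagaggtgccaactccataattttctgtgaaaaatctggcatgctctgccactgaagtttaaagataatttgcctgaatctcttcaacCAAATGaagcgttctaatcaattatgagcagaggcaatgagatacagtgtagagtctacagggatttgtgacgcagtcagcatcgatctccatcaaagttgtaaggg
Chrna5, second start, chr9:54981238-54981487, plus strand: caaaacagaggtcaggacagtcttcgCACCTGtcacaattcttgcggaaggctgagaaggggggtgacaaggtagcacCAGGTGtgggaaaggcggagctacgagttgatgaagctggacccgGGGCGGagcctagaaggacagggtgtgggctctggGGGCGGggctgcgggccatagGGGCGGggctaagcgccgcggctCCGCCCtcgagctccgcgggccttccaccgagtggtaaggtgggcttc

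The Chrnb4 window held 2 E-box matches and 0 GC boxes, and the Chrna3 window held 2 E-box matches, which overlap, and 1 GC box. The first Chrna5 window held 1 E-box match and 0 GC boxes, and the second held 2 and 4. A short stretch of bases a little after the second Chrna5 start was found in no GENCODE transcript of the gene. The matching stretches of the other starts shown were found. The bases directly after each start were not looked up, so this does not settle whether the second start is used. Over 32851 promoter windows of the same length, 66.2% held at least 1 E-box match and 32.7% at least 1 GC box. At least 4 GC boxes stood in 4.09% of windows. The first Chrna5 window was poor in G and C, at 40%, against a median of 52.4% over all windows, 61.2% for Chrnb4, 63.2% for Chrna3 and 65.2% for the second Chrna5 window. These matches describe letters only, and binding was not measured.

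Library totals ran from 9597635 to 12149448 counts, so that 1 CPM (count per 1000000, here scaled by TMM, the trimmed mean of M values) rests on roughly 10 counts. Rod genes were nearly absent in rd10, where the 10 genes of a rod list summed to 547 to 1224 CPM, against 76564 to 103537 CPM in the normal libraries. Lens genes held over 0.1% of counts in 4 libraries, wild type 2 and 3, rd10 2 and GFP 1. Wild type 3 and GFP 2 stood apart from the other normal libraries on the second principal component, and long transcripts were low in both. Among the longest genes, the last of 4 equal length classes, the median deviation from the mean of the normal libraries was -0.16 in wild type 3 and -0.24 in GFP 2 on the log2 scale. Without the 4 libraries with lens genes, which leaves 1 wild type and 2 GFP libraries, 0 members passed against wild type, where 3.69% of all genes did, and 1, Chrnb4, against GFP, where 12.6% did. Without wild type 3 and GFP 2, 4 members passed against wild type, where 32.5% of all genes did, and 5 against GFP, where 32.9% did.

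The order of the subunits was compared per length, as TMM-scaled CPM per kilobase of exon. Chrna6 was the most abundant, with 45.8 ± 2.57 in wild type, 60.4 ± 1.10 in rd10 and 44.1 ± 0.80 in GFP (SD, n = 3 libraries each, as throughout). Chrnb3 followed with 12.3 ± 1.67, 18.5 ± 1.22 and 11.4 ± 1.97. Chrnb2, the usual beta partner of brain receptors, had 8.33 ± 1.28, 11.9 ± 2.23 and 7.95 ± 1.83, and Chrna4, its usual alpha partner, had 7.75 ± 1.18, 10.04 ± 1.66 and 7.71 ± 1.30. The ranges of Chrnb2 and Chrna4 overlapped in every group, though within libraries Chrnb2 lay above Chrna4 in all but GFP 2. In GFP the lowest Chrnb3 library lay below the highest Chrnb2 library. The other 4 were low. In wild type, Chrnb4 stood at 1.62 ± 0.32, Chrna3 at 1.34 ± 0.21, Chrna5 at 1.15 ± 0.33 and Chrna7 at 1.03 ± 0.42, with overlapping libraries. In rd10 they spread out, to 4.81 ± 1.01 for Chrnb4, 2.58 ± 0.27 for Chrna3, 2.15 ± 0.57 for Chrna7 and 0.459 ± 0.150 for Chrna5. There Chrnb4 lay above Chrna3 and Chrna5 below all others in each library, while Chrna3 and Chrna7 overlapped. The exon lengths come from another annotation than the counts, which limits this order.

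**Figure D1:**
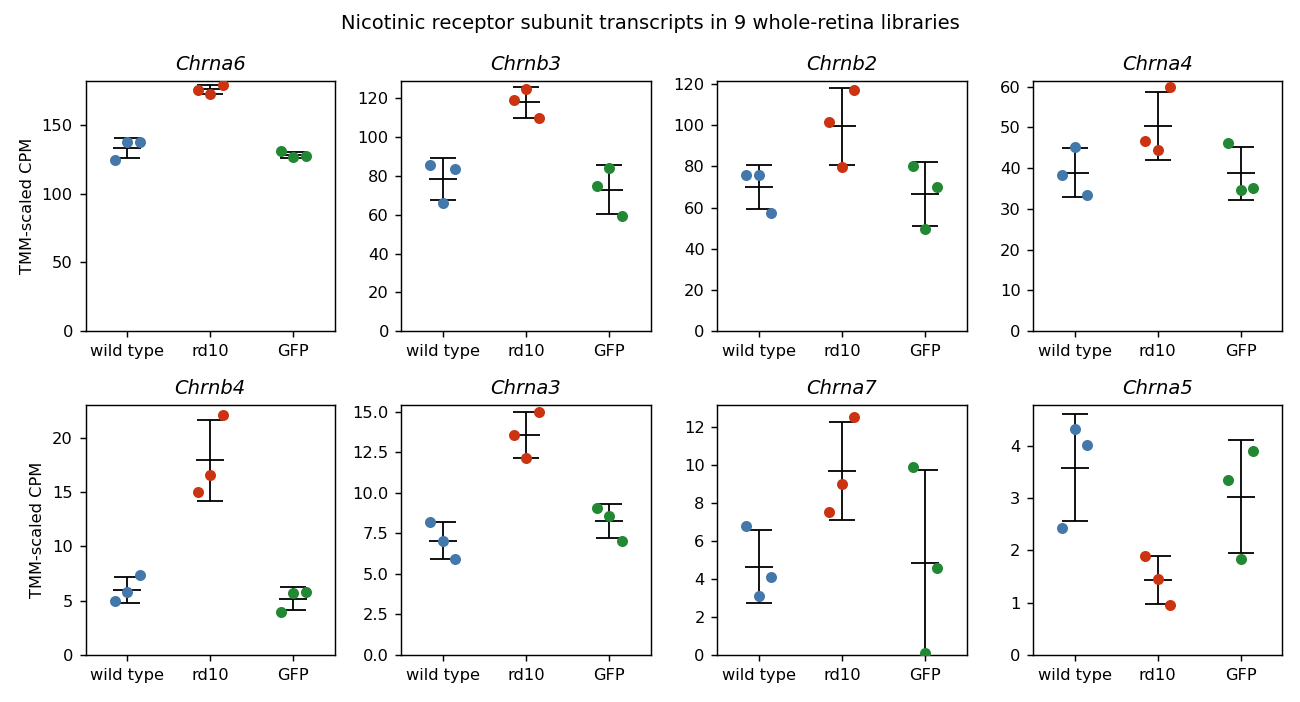
TMM-scaled CPM of the 8 subunits (vertical axes, each from 0) in wild type, rd10 and GFP libraries; points are libraries, black bars the mean and SD of 3. Chrnb4, Chrna3, Chrna6 and Chrnb3 are higher in all 3 rd10 libraries than in all 6 normal ones, Chrna5 is low in rd10, and 1 GFP library has almost no Chrna7.

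Of the 8 members, 4 rose and 1 fell in rd10 against wild type, and 3 did not pass. Adjusted p values are from the quasi-likelihood test of edgeR, adjusted by Benjamini-Hochberg over 14300 genes, unless another test is named. In this comparison 14.5% of all genes tested were called higher and 13.9% lower, 28.4% in all. The median log2 fold change of the members was 0.55, against -0.03 over all genes. Against GFP, 4 rose and 4 did not pass, where 15.2% of genes were called higher and 15% lower, 30.2% in all, and the median was 0.63 against -0.02. The 8 members summed to 461 to 516 CPM in rd10, 333 to 347 CPM in wild type and 311 to 358 CPM in GFP. The GFP comparison shares the rd10 libraries with the first one. All rd10 libraries lay above wild type for 6 members and below for 1, where 26.1% of genes lay above and 24.4% below, 50.5% in all. Against GFP they lay above for 4 and below for 0, where 25.1% and 23.1% of genes did, 48.2% in all. All 3 rd10 libraries exceeded all 6 normal ones for 4 members, while 20.7% of genes showed this.

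Chrnb4, a beta subunit that takes the place of Chrnb2 in ganglionic receptors, had the largest fold change of the 8. It had 4.95, 5.77 and 7.32 CPM in wild type, 15.01, 16.6 and 22.1 CPM in rd10 and 3.99, 5.73 and 5.82 CPM in GFP. Every rd10 library held at least 15.01 CPM, and no normal library exceeded 7.32 CPM. The rise was 2.98-fold against wild type (log2 change 1.57, SE 0.26, adjusted p = 0.00177) and 3.46-fold against GFP (1.79, SE 0.26, adjusted p = 8.29e-04). It passed without any single library and under each scaling tried. The call against wild type ended only without the 4 libraries with lens transcripts (log2 change 1.90, adjusted p = 0.0682), which leaves 1 wild type library assumed to vary like the other groups.

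Chrna3, the alpha subunit that pairs with Chrnb4 in ganglionic receptors, had 8.18, 7.02 and 5.92 CPM in wild type, 13.6, 12.2 and 14.98 CPM in rd10 and 9.07, 8.60 and 7.06 CPM in GFP. The rd10 libraries lay above all normal ones. Chrna3 rose 1.93-fold against wild type (log2 change 0.95, SE 0.22, adjusted p = 0.0104) and 1.65-fold against GFP (0.72, SE 0.22, adjusted p = 0.0309). The call against wild type held without any single library. Against GFP it was lost without rd10 1 (adjusted p = 0.0826), rd10 2 (0.0528), rd10 3 (0.101) or GFP 3 (0.103).

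Chrna5, the accessory subunit of the cluster, went the other way. It had 24, 45 and 40 counts in wild type (2.42, 4.33 and 4.01 CPM), 24, 18 and 13 counts in rd10 (1.90, 1.45 and 0.959 CPM) and 37, 16 and 41 counts in GFP (3.36, 1.83 and 3.91 CPM). The rd10 libraries lay below wild type, but rd10 1 was above GFP 2. Chrna5 fell against wild type (log2 change -1.32, SE 0.43, adjusted p = 0.0430). Against GFP it was lower without passing (-1.08, SE 0.43, adjusted p = 0.0809). The fall rests on few counts: the exact 95% counting interval of rd10 1 runs from 1.22 to 2.82 CPM and that of wild type 1 from 1.55 to 3.61 CPM. The call was lost without wild type 2 (adjusted p = 0.130), wild type 3 (0.109), rd10 1 (0.0639), rd10 2 (0.111) or rd10 3 (0.153). Against GFP a call was made without GFP 2 (log2 change -1.33, adjusted p = 0.0388).

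Chrna6, the alpha subunit of ganglion cell receptors, had 124.5, 137.6 and 137.3 CPM in wild type, 175.1, 172.6 and 179.0 CPM in rd10 and 130.7, 126.3 and 127.1 CPM in GFP. The libraries of each group lay close together and rd10 was above both normal groups. It rose 1.32-fold against wild type (log2 change 0.40, SE 0.13, adjusted p = 0.0377) and 1.37-fold against GFP (0.46, SE 0.13, adjusted p = 0.0212). Without any 1 of the 6 libraries the call against wild type was lost, with adjusted p from 0.0684 to 0.0895. Against GFP it was lost without rd10 1 (adjusted p = 0.0659), rd10 2 (0.0571), rd10 3 (0.0565) or GFP 3 (0.0640).

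Chrnb3, the accessory subunit next to Chrna6, had 85.8, 66.3 and 83.4 CPM in wild type, 119.0, 125.0 and 109.6 CPM in rd10 and 75.0, 84.2 and 59.4 CPM in GFP. Again no rd10 library overlapped a normal one. The rise was 1.50-fold against wild type (log2 change 0.59, SE 0.17, adjusted p = 0.0253) and 1.62-fold against GFP (0.69, SE 0.17, adjusted p = 0.0117). Against wild type the call was lost without wild type 2 (adjusted p = 0.0856), wild type 3 (0.0511), rd10 1 (0.0692) or rd10 2 (0.0747). Against GFP it held without any single library. In an alternative fit, the trend on gene length of a group's log2 fold changes from wild type was removed. It used the same offset for all libraries of a group, so length differences between libraries of a group remained. The call against wild type was then lost (log2 change 0.46, adjusted p = 0.0606).

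Chrnb2 and Chrna4, the subunits of the most common brain receptor, did not pass in either comparison. Chrnb2 had 76.0, 76.0 and 57.5 CPM in wild type, 101.4, 79.8 and 117.0 CPM in rd10 and 80.0, 49.9 and 70.1 CPM in GFP. Only rd10 2 came close to the normal libraries and lay just below GFP 1. The log2 difference was 0.51 (SE 0.21, adjusted p = 0.0924) against wild type and 0.58 (SE 0.21, adjusted p = 0.0600) against GFP, and it passed against GFP without GFP 1 (0.74, adjusted p = 0.0350). Chrna4 had 38.4, 45.1 and 33.3 CPM in wild type, 46.8, 44.5 and 60.0 CPM in rd10 and 46.3, 34.7 and 35.2 CPM in GFP. The rd10 libraries overlapped both normal groups, with log2 differences of 0.37 (SE 0.19, adjusted p = 0.164) and 0.38 (SE 0.19, adjusted p = 0.152). With library totals alone both genes passed in each comparison, as did 32.7% and 35.6% of all genes. Chrnb2 also passed with upper quartile scaling (adjusted p = 0.0465 and adjusted p = 0.0246), where 28.4% and 30.7% of all genes did. It passed further against GFP in DESeq2, as did 36.0% of all genes. With only the 2 groups compared it passed against wild type, as did 36.2%.

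Chrna7, the subunit of the homomeric receptor, varied most between libraries. It had 67, 32 and 41 counts in wild type (6.77, 3.08 and 4.11 CPM), 95, 112 and 170 counts in rd10 (7.51, 9.01 and 12.5 CPM) and 109, 1 and 48 counts in GFP (9.89, 0.115 and 4.58 CPM). The rd10 libraries lay above wild type, while GFP 1 lay within the rd10 range. The log2 difference from wild type was 1.06 (SE 0.76, adjusted p = 0.318). It did not pass in the fit of all 9 libraries, where 28.4% of all genes did. With only the 6 libraries compared it passed (1.06, adjusted p = 0.0314), as did 36.2% of all genes. It did not pass without wild type 3 and GFP 2, where 32.5% of all genes did. The part of GFP 2 in this was not tested. Against GFP the difference was 0.98 (SE 0.76, adjusted p = 0.345), and 0.42 without GFP 2 or 2.01 without GFP 1 (adjusted p = 0.462 and adjusted p = 0.0824).

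The single Chrna7 count of GFP 2 was below that of GFP 1 by a ratio of scaled counts of 86.3, with an exact 95% counting interval from 15.2 to 3438, and below GFP 3 by 39.9 (6.83 to 1610). Both intervals lie above 1, but they cover counting error only, and GFP 2 was singled out because its count was the lowest. Over all genes these replicates differed beyond counting error. The chi-square per degree of freedom was 80.1 for GFP 1 and 2 and 55.0 for GFP 2 and 3. In the same library Otud7a, the next gene on the chromosome, had 72 counts against 229 and 198 in GFP 1 and 3. In TMM-scaled CPM, Chrnb2, Chrna4, Chrna5 and Chrna6 were also at their lowest of the GFP libraries there, while Chrnb3 was at its highest. GFP 2 is the library with the lowest values of long transcripts; whether this plays a part in its Chrna7 count was not tested.

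**Figure D2:**
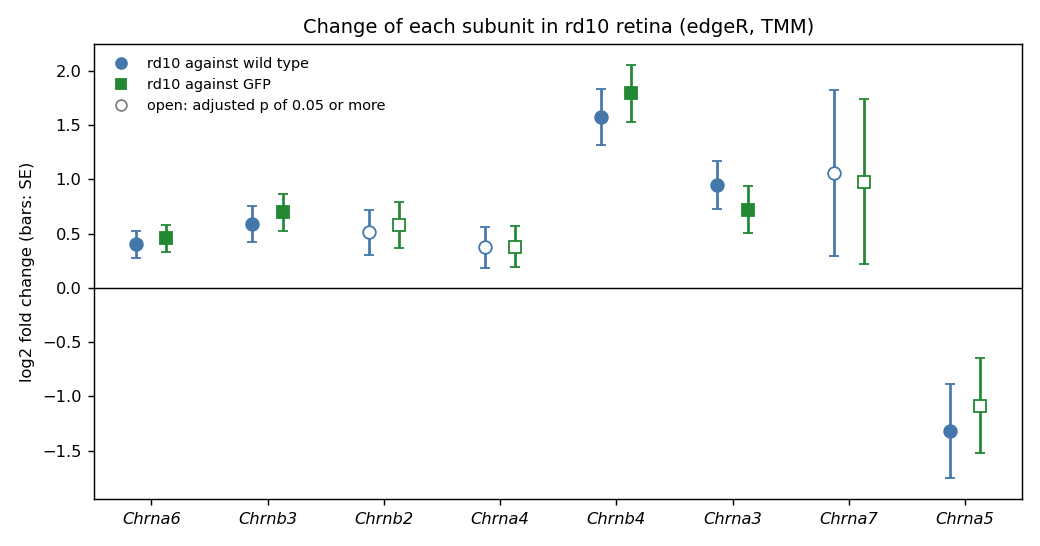
Log2 fold change of each subunit in rd10 against wild type (circles) and against GFP (squares), with SE bars; filled symbols have an adjusted p under 0.05. Chrnb4 stands highest at 1.57 and 1.79, Chrna5 is the only subunit below 0, and the SE of Chrna7 is 0.76.

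Within a library, ratios of raw counts need no scaling. Chrnb4 per Chrnb2 count was 0.0651, 0.0759 and 0.127 in wild type, 0.0499, 0.115 and 0.0830 in GFP and 0.148, 0.208 and 0.189 in rd10. The rd10 ratios were above all normal ones. Chrna5 per Chrna3 count was 0.296, 0.616 and 0.678 in wild type, 0.370, 0.213 and 0.554 in GFP and 0.140, 0.119 and 0.0640 in rd10. Here the rd10 ratios lay below all normal ones, also below GFP 2, whose Chrna5 level had overlapped rd10. Chrna5 per Chrnb4 count likewise separated, at 0.596 ± 0.137 in wild type, 0.0857 ± 0.0415 in rd10 and 0.611 ± 0.266 in GFP. In both Chrna5 ratios the 2 genes had been called in opposite directions against wild type from these same counts. Their separation is therefore no further support. Neither is that of Chrnb4 per Chrnb2, which uses the counts behind the call of Chrnb4.

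Ratios of other pairs overlapped between the groups. Chrna6 per Chrna4 was 3.47 ± 0.57 in wild type, 3.54 ± 0.48 in rd10 and 3.36 ± 0.46 in GFP. Chrnb3 per Chrnb2 was 1.15 ± 0.29, 1.23 ± 0.32 and 1.16 ± 0.46. Chrna6 per Chrnb3 was 1.72 ± 0.32 in wild type, 1.50 ± 0.13 in rd10 and 1.79 ± 0.32 in GFP. Chrna4 per Chrnb2 was 0.559 ± 0.048, 0.510 ± 0.048 and 0.592 ± 0.098. Chrnb4 per Chrna3 was higher in rd10 than in GFP (1.32 ± 0.19 and 0.644 ± 0.193) but overlapped wild type (0.888 ± 0.321). As a share of the length-scaled counts of all 8 members, Chrnb4 made up 2.03% ± 0.41 in wild type, 4.32% ± 0.72 in rd10 and 1.85% ± 0.46 in GFP, and Chrna5 1.44% ± 0.39, 0.418% ± 0.147 and 1.27% ± 0.45. Neither share overlapped between rd10 and either normal group. These shares reuse the counts that gave the calls of both genes, so this separation is no further support. The Chrna3 share was also higher in all rd10 libraries than in wild type (2.32% ± 0.14 and 1.69% ± 0.28) but overlapped GFP. Chrna6 kept the largest share, with 57.7% ± 2.58, 54.6% ± 1.53 and 57.9% ± 2.43 and overlapping libraries.

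**Figure D3:**
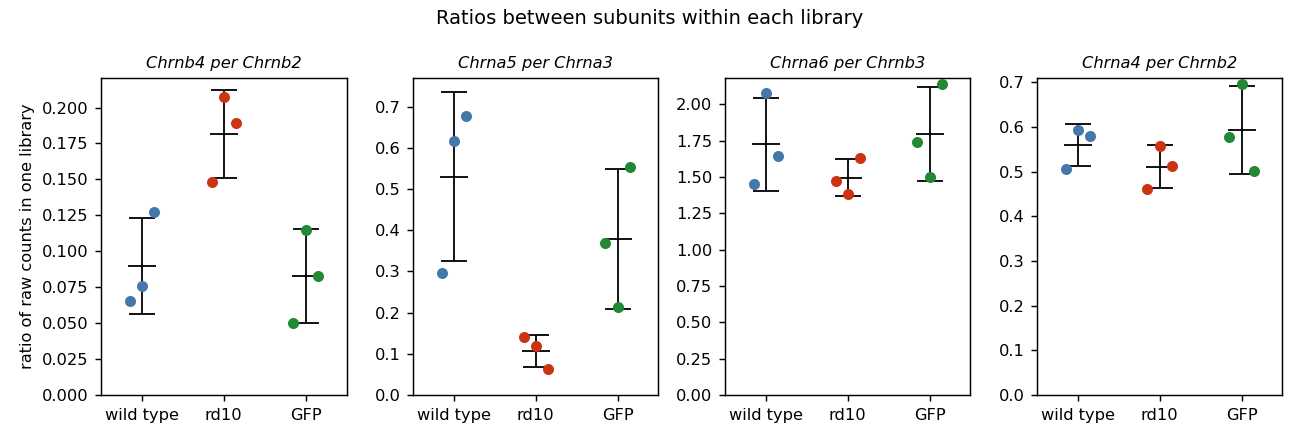
Ratio of raw counts between 2 subunits in the same library (vertical axes from 0); points are libraries, black bars the mean and SD of 3. Chrnb4 per Chrnb2 is higher and Chrna5 per Chrna3 lower in all 3 rd10 libraries, while Chrna6 per Chrnb3 and Chrna4 per Chrnb2 overlap between groups.

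The fold changes above depend on how the libraries were scaled. Library totals raised the median of all genes in rd10 against wild type from -0.03 to 0.25 on the log2 scale, and size factors from the ganglion cell, starburst and other amacrine lists lowered it to -0.74. Under that scaling 1.37% of all genes were higher and 52.8% lower against wild type, and 2.01% and 51.4% against GFP. Under the inner neuron size factors Chrnb4 was still higher against wild type (log2 change 0.85, adjusted p = 0.0175) and against GFP (1.10, adjusted p = 0.00505). Chrna5 was lower against wild type (-2.03, adjusted p = 0.00294) and against GFP (-1.77, adjusted p = 0.00671). Chrna3 was then at 0.23 and 0.04, Chrna6 at -0.32 and -0.23 and Chrnb3 at -0.12 and 0.02, none of which passed. Chrnb2 (-0.22 and -0.12) and Chrna4 (-0.36 and -0.31) also turned to lower values that did not pass. With TMM computed without the rod and cone lists, Chrna6 (0.28, adjusted p = 0.119) and Chrnb3 (0.47, adjusted p = 0.0530) lost their calls against wild type, and Chrna3 (0.60, adjusted p = 0.0571) and Chrna6 (0.34, adjusted p = 0.0662) against GFP. With library totals or upper quartile scaling the call of Chrna5 against wild type was lost (adjusted p = 0.1005 and adjusted p = 0.0568).

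**Figure D4:**
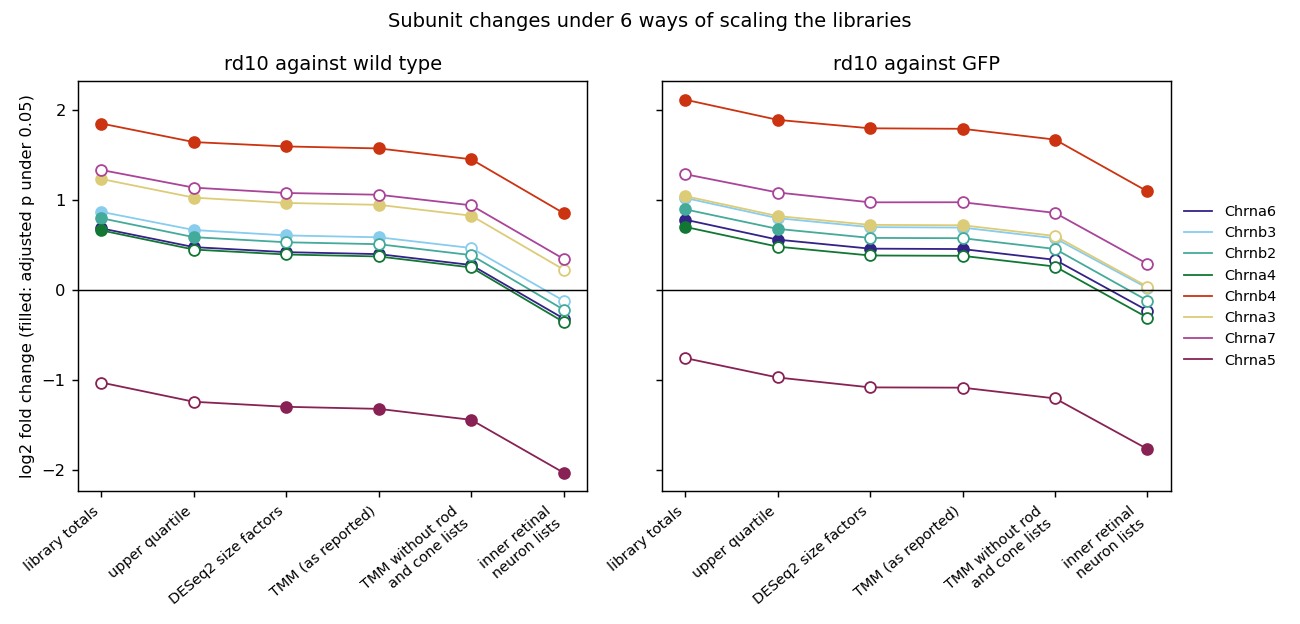
Log2 fold change of each subunit (lines) under 6 ways of scaling the libraries, against wild type (left) and GFP (right); filled points have an adjusted p under 0.05. Chrnb4 runs from 0.85 to 2.11 and Chrna5 from -2.03 to -0.76. Under the inner neuron lists Chrna6, Chrna4 and Chrnb2 cross 0 in both panels, and Chrnb3 crosses 0 on the left (-0.12).

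The marker lists put these values beside the cells that carry the receptors. Of 14 ganglion cell genes, 5 were higher in rd10 against wild type and 9 did not pass, with a median log2 change of 0.55. Of 7 starburst genes 5 were higher, with a median of 1.10. The list is mixed: Chat (0.88), Slc5a7 (1.06) and Slc18a3 (0.52, not passing) are also among the acetylcholine genes below, and Sox2 (1.10) and Isl1 (1.14) are also expressed in Müller glia or bipolar cells. Of 10 other amacrine genes tested 8 were higher, with a median of 0.64. Among ganglion cell genes, Rbpms had a log2 change of 0.97, Pou4f1 of 0.92 and Slc17a6 of 0.88. The call of Thy1 (0.53) was lost without any 1 of the 6 libraries (adjusted p up to 0.0805). That of Eomes (0.57) was lost without any 1 of 5 (adjusted p up to 0.127). Of the members, 4 lay above the ganglion cell median, 3 above the other amacrine median and 1, Chrnb4, above the starburst median. The ganglion cell list summed to 1811 to 2053 CPM in rd10, against 1289 to 1513 CPM in wild type and 1309 to 1414 CPM in GFP. The starburst list summed to 356 to 376 CPM in rd10, against 166.0 to 173.8 and 161.5 to 216 CPM. Of 12 bipolar cell genes 9 were higher, with a median of 1.00 and sums of 3447 to 4178 CPM in rd10 and 1711 to 2222 CPM in the normal libraries. Of 12 microglia genes 10 were higher, with sums of 263 to 303 CPM in rd10 and 82.3 to 130.2 CPM in the normal libraries. Of 10 Müller glia genes 8 were higher, with sums of 10789 to 11328 CPM and 5422 to 7035 CPM. No gene of these lists had a count of 0 in all libraries. The part of these lists in the changes of the subunits was not tested.

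Acetylcholine supply was measured by 8 genes, 7 of them tested, of which 3 were higher in rd10 against wild type. Slc5a7, the choline transporter of cholinergic terminals, rose from 12.9 ± 1.69 to 27.0 ± 1.89 CPM, or 2.09-fold (adjusted p = 0.00173). Chat, the enzyme that makes acetylcholine, rose from 13.0 ± 2.04 to 23.97 ± 4.56 CPM, or 1.84-fold (adjusted p = 0.0156), but not without wild type 2 (adjusted p = 0.0560) or rd10 3 (0.0644). Bche, the butyrylcholinesterase gene, was 2.63-fold higher (adjusted p = 0.0162), but not without wild type 3 (adjusted p = 0.0559) or rd10 1 (0.0673). Slc18a3, the vesicular transporter, whose span lies within Chat, had a log2 difference of 0.52 (adjusted p = 0.122). Ache, the main acetylcholinesterase gene, had 0.29 (adjusted p = 0.242) against wild type. Slc44a1, a choline transporter of many cells, had -0.84 (adjusted p = 0.0744). The list's median was 0.85. Against GFP 4 were higher, Ache among them (0.55, adjusted p = 0.0387), and Slc44a1 was lower (-1.03, adjusted p = 0.0359); the call of Ache was lost without any 1 of 5 libraries and that of Slc44a1 without any 1 of 4 (adjusted p up to 0.123 and 0.119).

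Muscarinic receptors, the G protein-coupled receptors of acetylcholine, were tested in 4 of 5 genes, of which 2 were higher, with a median of 1.10. Chrm3 rose from 6.20 ± 1.47 to 14.7 ± 2.25 CPM (2.37-fold, adjusted p = 0.00847), with 7.51 ± 2.03 CPM in GFP. Chrm1 rose 1.98-fold (adjusted p = 0.0427), a call that was lost without any 1 of 5 libraries (adjusted p up to 0.134) and held only without wild type 2 (0.0209). Chrm2 and Chrm4 had values of 1.16 and 1.04 on the log2 scale and did not pass (adjusted p = 0.151 and adjusted p = 0.0739), and Chrm5 had at most 13 counts in a library.

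Proteins that help receptors assemble or bind them at the membrane were tested in 10 genes, of which 3 were higher and 7 did not pass, with a median of 0.59. Lypd6, a prototoxin-like modulator of nicotinic receptors, rose from 19.7 ± 2.78 to 38.6 ± 3.83 CPM (1.96-fold, adjusted p = 0.00510). Ly6h, of the same family, was 1.77-fold higher (adjusted p = 0.0116). Lypd6b was 1.83-fold higher (adjusted p = 0.0350), a call lost without any 1 of the 6 libraries (adjusted p from 0.0559 to 0.103). The chaperone gene Ric3, which helps Chrna7 receptors fold, had 125.8 ± 9.78 CPM in normal wild type retina, and in rd10 it had 109.8 ± 9.35 CPM (adjusted p = 0.382), and its span overlaps Tub. Tmem35, another chaperone of these receptors, had a log2 difference of -0.47 (adjusted p = 0.156), and Lynx1, a membrane-bound prototoxin, of 0.35 (adjusted p = 0.185).

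The other nicotinic subunits, which belong to muscle or hair cell receptors or are rare in brain, were mostly near the detection limit. Chrna2 had 8.11 ± 0.79 CPM in wild type, 12.3 ± 1.04 CPM in rd10 and 8.78 ± 1.84 CPM in GFP, with no overlap of rd10, and its log2 difference of 0.60 missed the threshold (adjusted p = 0.0652). Chrnb1, a muscle subunit, had a log2 difference of 0.59 (adjusted p = 0.178). Chrna1, its muscle partner, had 5 to 19 counts in every library except GFP 2, which had 47. Chrne had 4, 10 and 2 counts in wild type, 2, 8 and 2 in GFP and 0 in each rd10 library. Chrng had 2 counts in wild type 2 alone, Chrna10 had at most 2 in a library, and Chrna9 and Chrnd had 0. The skeletal muscle list summed to 6.12 to 14.1 CPM over all libraries.

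**Figure D5:**
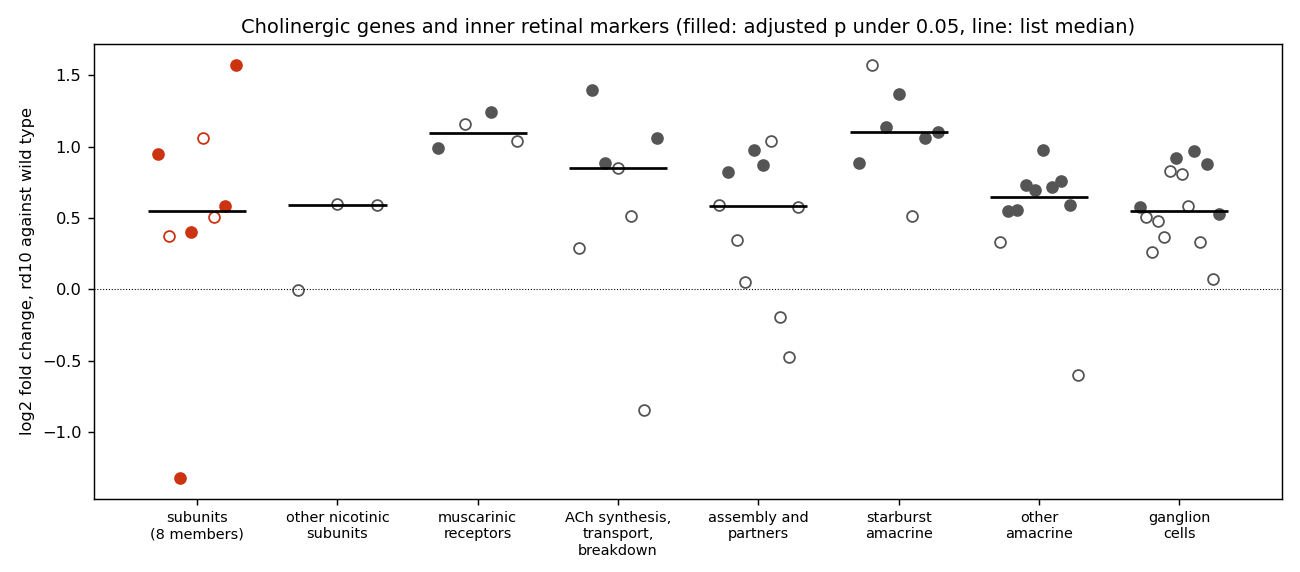
Log2 fold change in rd10 against wild type for the 8 members (red) and for genes of related lists (grey); each point is a gene, filled where the adjusted p is under 0.05, and lines are list medians. The members and the ganglion cell list both have a median of 0.55, and of the lists drawn only the members include a called gene below 0.

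Some genes next to the members were compared with them in rd10 against wild type. Beside the chromosome 9 cluster, Psma4 had a log2 difference of -0.42 (adjusted p = 0.184), and Ube2q2 was 1.38-fold higher (adjusted p = 0.0453), which was lost without wild type 2, wild type 3, rd10 1 or rd10 2 (adjusted p up to 0.138). Next to Chrna6, Poteg had 0 counts in all 6 normal libraries and 31, 39 and 55 in rd10, at least 10.8-fold higher against wild type on a floor of 3 counts per library (adjusted p = 0.00188). Kcnn3, the potassium channel gene before Chrnb2, was 3.54-fold higher (adjusted p = 0.00640), on 14, 16 and 10 counts in wild type. That call held without any single library. Against GFP, whose Kcnn3 CPM lay above wild type, it was 2.21-fold higher (adjusted p = 0.0387), which was lost without any 1 of 5 libraries (adjusted p up to 0.158). Ube2q1, after Chrnb2, was lower against wild type (log2 change -0.54, adjusted p = 0.0315), which was lost without any 1 of the 6 libraries (adjusted p from 0.0528 to 0.123). Adar, which overlaps Chrnb2, had a log2 difference of 0.40 (adjusted p = 0.177).

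The genes whose log2 CPM over the 9 libraries resembled a member most were found among genes with at least 5 CPM. Pearson's r across libraries was 0.997 for Chrna6 with Spon1 and 0.994 with Myb. It was 0.986 for Chrna3 with Myt1l and 0.985 with Map3k5, and 0.984 for Chrnb4 with Tmem44 and 0.980 with Tlr3. Chrnb2 came closest to Zdhhc18 (0.990) and Nyx (0.985), Chrnb3 to B230206F22Rik (0.982) and Slc6a8 (0.978), and Chrna4 to 9030617O03Rik (0.967) and Cdr2l (0.963). For Chrna7 these were Pcdhac2 (0.974) and Akt2 (0.971), and for Chrna5 Cbx8 (0.971) and Edc3 (0.957). The points share the 3 groups and the depth of their libraries, so each r is a description. Among the members, Chrna6 and Chrnb4 had the highest r, 0.96, and Chrna3 and Chrna5 the lowest, -0.88.

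GFP and wild type retina, both labelled normal, gave no call among the 8 members (0) and none among all genes (0%). At an unadjusted p under 0.05, edgeR listed 214 of 14300 genes and 0 members. DESeq2 called 2 genes and limma-voom 0, and neither listed a member at an unadjusted p under 0.05. The largest log2 difference of a member was -0.24 for Chrna5 (SE 0.42), followed by 0.23 for Chrna3 (SE 0.22) and -0.22 for Chrnb4 (SE 0.27). The libraries of both groups overlapped for all 8 members, while 1.52% of all genes were higher and 2.46% lower in GFP without overlap. A p that misses the threshold does not show equal levels, and for Chrna7 the SE was 0.78.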

How the data were processed

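Polyadenylated RNA of 9 whole-retina libraries had been reverse transcribed from random hexamers, per the labels' protocols. The authors deposited 1 raw count per gene and library on the mouse build mm9, per the submitters' processing notes; aligner, counting program, annotation and strand setting are not given in the sources used here. Values were read as raw counts because all were whole numbers with differing totals (9597635 to 12149448). Here, edgeR 4.0.16 selected genes with filterByExpr (R 4.3.3; minimum count 10, minimum total 15), leaving 14300 genes and all 8 members. Libraries were scaled by TMM, and 1 quasi-likelihood model with a mean per group was fitted to all 9; p values were Benjamini-Hochberg adjusted over all genes, with a threshold of 0.05. Log2 CPM used a prior count of 2. DESeq2 1.42.0 and limma 3.58.1 were alternatives. Exon lengths were GENCODE M21 (symbols matched for 89.9% of genes). Counting intervals are exact Poisson or binomial 95% intervals and, like floors, cover counting error only. The procedure was tested on simulated data. Replicates are called biological in the design text, and replicate pairs differed by a chi-square per degree of freedom of 13.6 to 80.1. Of 160 list entries, 158 were matched. The members and lists were chosen with earlier results of these data known. Named genes were all members, the other nicotinic subunits, up to 5 passing genes per cholinergic list (other list genes were added after their values were seen), chromosome neighbours, and the 2 genes most like each member.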

Additional observations from a re-analysis of the deposited data

How the results depend on the processing

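The 8 members gave 368 values of single subunits that kept direction and side of the threshold under an alternative, 46 that lost a call, 13 that gained one and 29 that changed sign. These pool GFP against wild type, where no call could be lost. Of 19 alternatives against wild type, Chrna5 lost its call in 11, Chrna6 in 10, Chrnb3 in 7, Chrna3 in 2 and Chrnb4 in 1. Chrna6 and Chrnb3 each changed sign in 1 more. Against GFP, Chrna3 lost its call in 7, Chrna6 in 6, Chrnb3 in 2 and Chrnb4 in 0. There Chrna6 changed sign in 1 more. The count of members passing in rd10 against wild type was 5. It was 2 with size factors from inner neuron lists, 3 with TMM without rod and cone lists, 3 with no filter, 3 with the replicate block and 0 without the libraries with lens transcripts, and from 2 to 4 when 1 replicate was left out. Against GFP it was 4. It was 2 with the inner neuron lists, 2 with TMM without rod and cone lists and 1 without the libraries with lens transcripts, and from 2 to 5 when 1 replicate was left out; with the replicate block it was 4. Other alternatives stayed within 1.5 times. Of all genes, 28.4% passed against wild type in the main fit and 54.2% with the inner neuron lists. TMM without rod and cone lists gave 30.03%, no filter 22.05% and the replicate block 25.2%. When 1 replicate was left out, 16.99% to 24.19% passed against wild type. Against GFP 30.2% of all genes passed in the main fit, 53.4% with the inner neuron lists and 31.7% with TMM without rod and cone lists. With the replicate block 27.3% did, and 18.0% to 29.5% when 1 replicate was left out. For GFP against wild type the count of members was 0 under every alternative run.

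Replicate numbers did not pair the samples: correlations of same-numbered libraries ran from -0.37 to 0.36 over 9 pairs. With the block, Chrna5 (adjusted p = 0.0774) and Chrna6 (0.0684) no longer passed against wild type.

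Sign changes, as log2 differences, were these. With the inner neuron lists against wild type, Chrna4 was -0.36, Chrna6 -0.32, Chrnb2 -0.22 and Chrnb3 -0.12; against GFP, Chrna4 was -0.31, Chrna6 -0.23 and Chrnb2 -0.12. This scaling moved the median of all genes to -0.74 and -0.70 and gave 196 higher and 7555 lower genes against wild type, where library totals gave 3603 and 1079, upper quartile 2464 and 1596, TMM without rod and cone lists 1542 and 2752, and TMM 2067 and 1988. Against GFP these were 287 and 7345, 4040 and 1055, 2745 and 1644, 1674 and 2860, and 2174 and 2138. Without the lens libraries 86 and 457 genes passed against wild type and 876 and 970 against GFP, and leaving out 1 replicate gave as few as 1269 and 1186 against wild type (without rd10 1) and 1297 and 1305 against GFP (without rd10 1). The others were all in GFP against wild type, where no member passed. Without the lens libraries Chrna3 was -0.066, Chrna5 0.25, Chrna6 0.024, Chrna7 -1.49 and Chrnb4 0.22. Chrna4 was 0.0111 with DESeq2 size factors in edgeR, 0.0096 with no filter, 0.0113 in DESeq2, 0.0042 without wild type 1, 0.12 without wild type 2, 0.09 without GFP 2 and 0.07 without GFP 3, and leaving out 1 replicate gave -0.147 to 0.12. Chrna5 was 0.038 without GFP 2 and 0.10 without wild type 3 and GFP 2, and leaving out 1 replicate gave -0.440 to 0.038. Chrna7 was -0.96 with limma-voom, -0.21 with the replicate block, -0.13 without wild type 2 and -0.93 without GFP 1, and leaving out 1 replicate gave -0.93 to 0.658. Chrnb2 was 0.02 without wild type 1, 0.0042 without wild type 2 and 0.12 without GFP 2, and Chrnb3 was 0.029 without GFP 3. Apart from the scalings, whose construction shifts every gene, the cause was not tested. At 13 to 45 counts per library, depth limits Chrna5.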
